A study of Oryza sativa with 6 samples.

Results

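The loci described here form a run on rice chromosome 7 that holds genes for prolamins and seed allergens among unrelated neighbours. Its members were all rows of the deposited count table whose identifiers fall from LOC_Os07g10540 to LOC_Os07g12000, with 1 row in that range left out by the rule. That gave 81 of the 39217 rows. The run was picked because loci in it had much lower counts in drw1 than in ZH11 grains. The values of that comparison are therefore given as a description. No test was made on the members as a set, and where calls from the fit over all genes are counted among them, they support nothing.

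RNA was sequenced from whole grains of the drw1 mutant and of the wild type ZH11, a japonica cultivar, both field-grown and harvested 3 days after pollination. There were 3 libraries per genotype, 6 in all. The nature of the drw1 lesion and the number of mutant lines were not stated. The libraries are numbered in the labels, with no word on whether each stands for its own plants, so the spread between them may be technical. The table heads the mutant columns with another prefix than drw1. They were assigned to drw1 because the series holds no other genotype beside ZH11, and every direction below rests on that assignment.

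Prolamins are alcohol-soluble storage proteins that rice deposits in protein bodies of the endoplasmic reticulum in the starchy endosperm. Seed allergens of rice belong to the alpha-amylase and trypsin inhibitor family, which shares a conserved cysteine pattern with the prolamins. Both are made in the endosperm as the grain fills, and both occur as tandem copies.

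The table gives no gene names, and 0 of the 81 identifiers occur in the reference gene table (assembly ASM3414082v1). That table lists on chromosome 7, in this order, genes with the synonyms PROLM25, RAG1, RAG2, RA16 and RA5. The first is also listed there as prolamin, and the other four are seed allergen names. Which locus of the run is which of them is not paired in the sources used here. Loci were therefore put into a prolamin list of 6 and a seed allergen list of 9 by identifier alone, as an assignment and not an annotation. Of these, 5 prolamin and 9 allergen loci are rows of the table, and the other 67 rows of the run are called neighbours here. The sequences of these genes were not used here.

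Library totals were 16440923 to 17270099 counts in drw1 and 15582373 to 24147797 in ZH11. Levels are in CPM, counts per 1000000 library counts after TMM scaling (a scaling that takes most genes as unchanged). Over all genes, 16395 of 23395 tested (70.1%) passed an adjusted p of 0.05 between the genotypes (edgeR quasi-likelihood test), so a difference as such was the usual state of a gene in these libraries.

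Of the 81 rows, 16 had no count in any library and 14 had 1 to 19 counts over the 6 libraries. The remaining 51 had at least 20 counts, and the values below are for these unless stated. They comprised 5 prolamin loci, 8 allergen loci and 38 neighbours. The allergen locus without a single count was LOC_Os07g11320. Just inside the minimum lay LOC_Os07g11900 with 26 counts and LOC_Os07g10920 with 31, and just outside it lay LOC_Os07g11550 with 19 and LOC_Os07g11790 with 18. At the ends of the identifier range, LOC_Os07g10540 (1103 counts over drw1, 1242 over ZH11) and LOC_Os07g11980 (58 over drw1, 37 over ZH11) were the outermost rows inside. The next rows outside, LOC_Os07g10535 and LOC_Os07g12030, had 0 counts in all 6 libraries.

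The assigned storage loci that were read had far lower levels in drw1 grains than in ZH11 grains. All 13 with at least 20 counts were lower in drw1 by more than 8-fold, with log2 ratios of mean CPM (drw1 over ZH11) from -8.84 to -4.56 and a median of -5.65. In 13 of 13 every drw1 library lay below every ZH11 library, where 35.3% of all tested genes were lower in drw1 without overlap. Of the 13, 12 were among the tested genes, and LOC_Os07g11900 was not, since it did not pass the filter. A ratio of 1/8 or less was found in 1.85% of all tested genes, and the median log2 ratio over all tested genes was 0.03. The run was chosen on this contrast, and 10 of the 13 loci would not have reached 20 counts from drw1 alone, so these shares carry no weight as evidence.

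**Figure D1:**
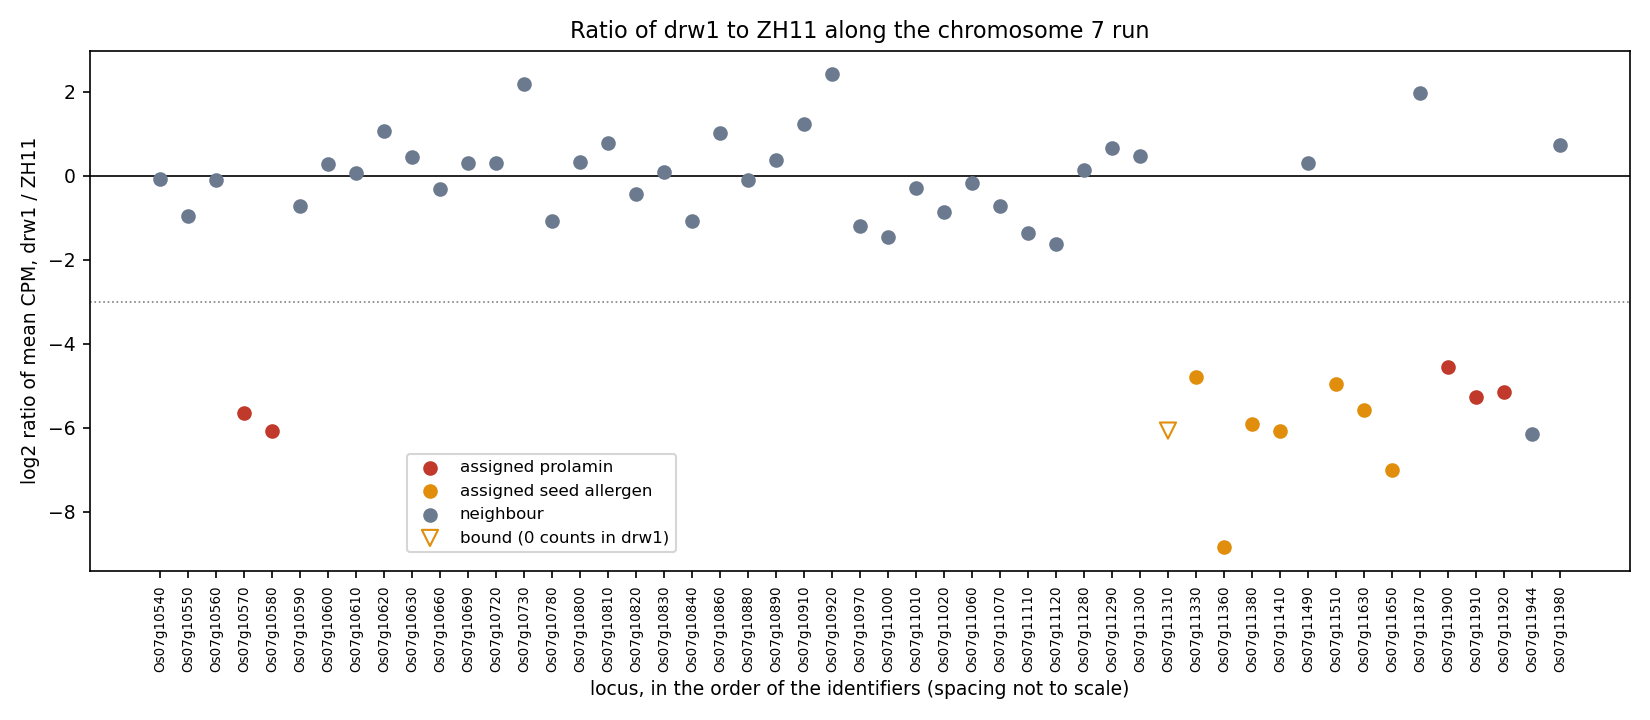
Log2 ratio of mean CPM in drw1 over ZH11 for the 51 loci with at least 20 counts, in the order of their identifiers. The dotted line marks an 8-fold lower level; 13 assigned loci (red prolamin, orange seed allergen) and the neighbour LOC_Os07g11944 lie below it, and the other 37 neighbours lie between -1.63 and 2.41.

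Summed over the prolamin loci, the level was 1.26, 0.518 and 0.939 CPM in drw1 libraries, against 46.9, 46.8 and 50.1 CPM in ZH11 libraries. The means were 0.905 ± 0.372 CPM in drw1 and 48 ± 1.88 CPM in ZH11 (SD, n = 3 each), a 53-fold lower sum in drw1. Every drw1 library was far below every ZH11 library. The seed allergen loci summed to 3.49, 4.6 and 4.03 CPM in drw1 libraries, against 196, 174 and 165 CPM in ZH11 libraries. Their means were 4.04 ± 0.556 CPM in drw1 and 178 ± 16 CPM in ZH11 (SD, n = 3 each), 44.1-fold lower in drw1. In ZH11 the allergen sum was 3.72 times the prolamin sum. All assigned loci together took 0.000505% to 0.000541% of the counts in drw1 libraries, against 0.0206% to 0.0228% in ZH11 libraries.

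**Figure D2:**
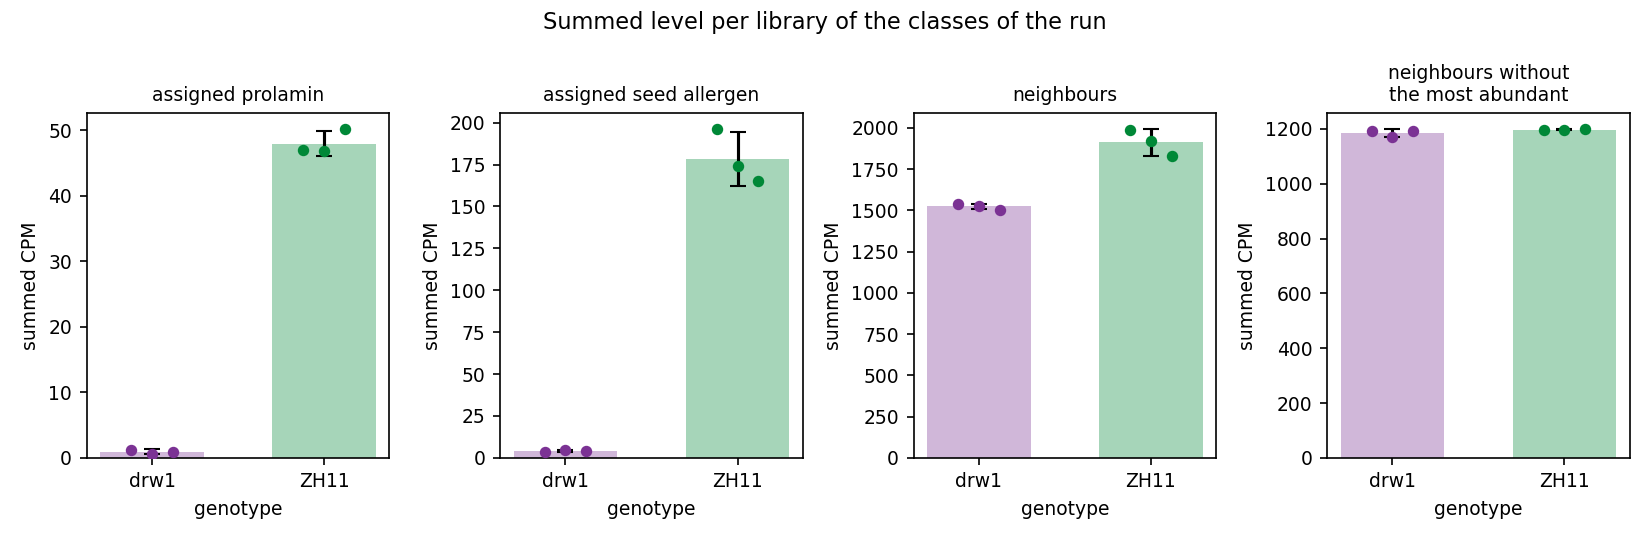
Summed CPM per library (points) with the mean (bar) and SD (line) of 3 libraries, drw1 left and ZH11 right, for 4 classes of the run on separate vertical axes that start at 0. The prolamin and allergen sums were 0.905 and 4.04 CPM in drw1, against 48 and 178 CPM in ZH11; without the most abundant locus the neighbours had nearly equal sums, 1185 CPM in drw1 and 1197 CPM in ZH11.

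The prolamin list falls into a pair at the low end of the run and a group at the high end. LOC_Os07g10570 had 0.515, 0.173 and 0.221 CPM in drw1 libraries, against 15.3, 14.8 and 15.6 CPM in ZH11 libraries. LOC_Os07g10580 had 0.344, 0.23 and 0.497 CPM in drw1 libraries, against 22.6, 23.9 and 25.8 CPM in ZH11 libraries. In both loci all ZH11 libraries lay close together and all drw1 libraries rested on 3 to 9 counts each. The first was 50.4-fold lower in drw1 (95% counting interval 30.8 to 88.4, exact binomial on the summed counts) and the second 67.6-fold lower (42.7 to 111). Without drw1 replicate 1 the log2 ratio of the first was -6.27, against -5.65 with all libraries. Both gene models are 471 bases long. How alike the copies are was not examined. Reads shared by near-identical copies may have been divided or lost in the counting, so the values of single copies are uncertain. The pair summed to 0.66 ± 0.233 CPM in drw1 and 39.4 ± 1.81 CPM in ZH11 (SD, n = 3 each). Reads divided within the pair would leave this sum unchanged, but lost reads would lower it too.

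The prolamin loci at the high end had lower levels. LOC_Os07g11920 had 0.344, 0.0576 and 0.166 CPM in drw1 libraries, against 7.42, 5.77 and 6.84 CPM in ZH11 libraries, 35.3-fold lower in drw1 (18.8 to 73.4). Its log2 ratio of -5.14 was -5.90 without drw1 replicate 1. LOC_Os07g11910 was read 1, 1 and 0 times in drw1 libraries, against 26, 39 and 20 times in ZH11 libraries. Its ratio was 38.8-fold lower in drw1, with a counting interval of 10.7 to 336, and its log2 ratio of -5.28 was -4.69 without drw1 replicate 3. LOC_Os07g11900 was close to the limit of detection in both genotypes, with 0, 0 and 1 counts in drw1 libraries and 2, 15 and 8 in ZH11 libraries. Its 23.5-fold lower level had a counting interval of 3.85 to 966. Without drw1 replicate 3, which holds the single drw1 count, its log2 ratio of -4.56 became a bound of -2.33, and without either of the other drw1 libraries it was -3.97. These models are all 456 bases long. Equal length does not show that copies are near-identical, but the caution on shared reads may apply here and to the allergen loci below. The high-end prolamin loci summed to 0.246 ± 0.144 CPM in drw1 and 8.59 ± 0.418 CPM in ZH11 (SD, n = 3 each), 35-fold lower in drw1.

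LOC_Os07g11510 was the most strongly expressed of the assigned loci. It had 1.77, 2.71 and 2.76 CPM in drw1 libraries, against 80.9, 71.9 and 70.8 CPM in ZH11 libraries. The genotypes were far apart, yet this was also the best-read assigned locus in drw1, with 31, 47 and 50 counts, and no other assigned locus passed 11 counts in any drw1 library. Its level was 30.9-fold lower in drw1 (25.9 to 37.1). Per kilobase of gene model it reached 5 CPM in drw1 and 154 CPM in ZH11. On that scale it ranked 15483 of the 23395 tested genes in drw1 and 668 in ZH11.

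LOC_Os07g11410 had 0.63, 0.518 and 0.442 CPM in drw1 libraries, against 37.9, 36.5 and 33.4 CPM in ZH11 libraries, 67.9-fold lower in drw1 (47.2 to 103). LOC_Os07g11380 had 0.401, 0.345 and 0.11 CPM in drw1 libraries, against 17.6, 17.7 and 16 CPM in ZH11 libraries, 59.8-fold lower in drw1 (36.6 to 109). Both were tight in ZH11, with a coefficient of variation of 6.36% for the first and 5.37% for the second. LOC_Os07g11330 had 0.286, 0.633 and 0.387 CPM in drw1 libraries, against 14.5, 10.5 and 11.4 CPM in ZH11 libraries, 27.9-fold lower in drw1 (18.3 to 44.1). LOC_Os07g11630 had 0.286, 0.288 and 0.166 CPM in drw1 libraries, against 13.4, 11.5 and 10.5 CPM in ZH11 libraries, 47.9-fold lower in drw1 (28 to 91.2). None of these loci was at 0 in any drw1 library.

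The remaining 3 allergen loci were read at most 2 times in any drw1 library. LOC_Os07g11650 had 2, 2 and 2 counts in drw1 libraries, against 318, 306 and 197 in ZH11 libraries, 129-fold lower in drw1 on the CPM scale (58.9 to 352). LOC_Os07g11360 had 0, 0 and 1 counts in drw1 libraries, against 180, 189 and 109 in ZH11 libraries, and its 458-fold lower level had a counting interval of 80.4 to 17806. Without drw1 replicate 3, which holds the single drw1 count, its log2 ratio of -8.84 became a bound of -6.61, and it was -8.25 without either of the other drw1 libraries. LOC_Os07g11310 had no count in any drw1 library, against 89, 97 and 35 counts in ZH11 libraries. With 3 counts over all drw1 libraries (0.0567 CPM) taken as the limit of detection, it was 67.1-fold lower in drw1, a log2 bound of -6.07. This bound is set by the chosen floor, and the counting interval of the locus reached down to 55.9-fold. Without 1 drw1 library the log2 bound was -5.46 to -5.49. LOC_Os07g11310 was also the most variable allergen locus in ZH11, at 4.82, 4.24 and 2.35 CPM.

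**Figure D3:**
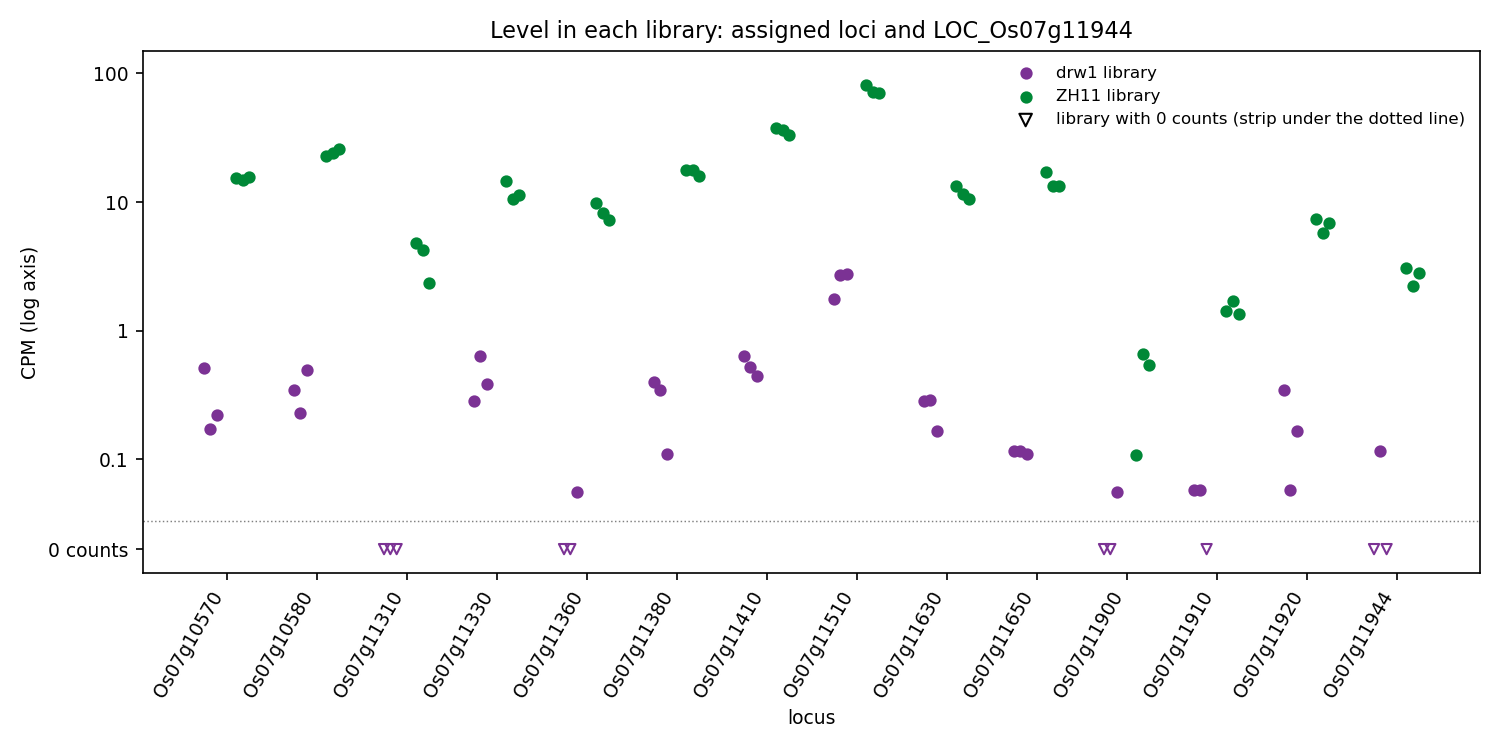
CPM on a log axis in each drw1 library (purple, left) and each ZH11 library (green, right) for the 13 assigned loci and LOC_Os07g11944. Libraries with 0 counts are drawn as triangles in the strip under the dotted line; in every locus all drw1 points lie below all ZH11 points, and LOC_Os07g11510 is highest in both genotypes.

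The remaining level in drw1, as a fraction of ZH11, ranged from 0.218% to 4.25% over the 12 assigned loci read in drw1. LOC_Os07g11510 kept 3.24% of its ZH11 level (95% counting interval 2.7% to 3.87%), and LOC_Os07g11330 kept 3.59% (2.27% to 5.45%). LOC_Os07g11650 kept 0.776% (0.284% to 1.7%), LOC_Os07g11360 0.218% (0.00562% to 1.24%) and LOC_Os07g11410 1.47% (0.969% to 2.12%). The intervals of these 3 loci do not reach those of the first 2, but drw1 had 1 count of LOC_Os07g11360 and 6 of LOC_Os07g11650. The other assigned loci had intervals that overlap at least one of these groups. Intervals cover counting error only, the differences between loci were not tested, and no difference is read from them.

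**Figure D4:**
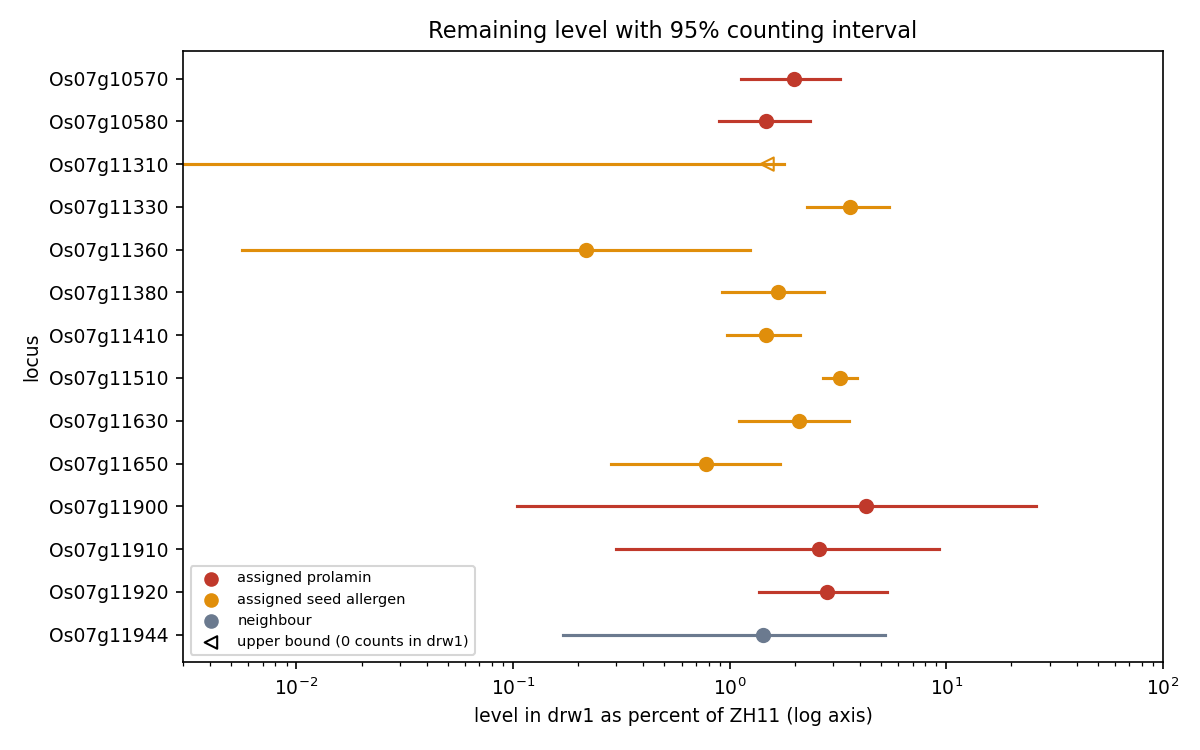
Level in drw1 as percent of ZH11 (log axis) with its exact 95% counting interval for the 13 assigned loci and LOC_Os07g11944. The open triangle is a bound set by the floor of 3 counts, for LOC_Os07g11310 with 0 counts in drw1. Its interval reaches up to 1.79% and runs to 0 beyond the left edge. Points lie between 0.218% and 4.25%, and intervals are widest where drw1 had 0 to 2 counts.

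The assigned loci made up their own sum as follows. LOC_Os07g11510 took 48.6% ± 9.82 of the summed CPM of the assigned loci in drw1, against 32.9% ± 0.361 in ZH11 (SD, n = 3 each). LOC_Os07g11410 took 10.8% ± 2.25 in drw1 and 15.9% ± 0.554 in ZH11. LOC_Os07g11650 took 2.29% ± 0.102 in drw1 and 6.43% ± 0.575 in ZH11. Its drw1 share rests on 2 counts in each library, so its small SD understates the counting error. LOC_Os07g11330 took 8.72% ± 3.27 in drw1 and 5.34% ± 0.613 in ZH11. LOC_Os07g11360 took 0.37% ± 0.642 in drw1 and 3.72% ± 0.31 in ZH11. The drw1 shares rest on 83, 89 and 90 counts per library, against 4485, 5051 and 3211 counts per ZH11 library. Among the prolamin loci, LOC_Os07g10580 took 7.24% ± 2.75 in drw1 and 10.7% ± 1.34 in ZH11. LOC_Os07g10570 took 6.22% ± 4.04 in drw1 and 6.76% ± 0.475 in ZH11, which differ by less than the drw1 spread, as did the shares of the high-end prolamin loci.

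Within ZH11 the lists varied differently between libraries. Of the 8 expressed allergen loci, 7 were highest in replicate 1, whereas of the 5 prolamin loci 1 was highest in replicate 1, 2 in replicate 2 and 2 in replicate 3. Some neighbours, among them LOC_Os07g10840, were also highest in replicate 1, and others were not. The share over all genes was not counted and copies of a family are not independent, so nothing is read from these counts. The allergen sum in replicate 1 was 196 CPM, against 174 and 165 CPM in the other ZH11 libraries. The prolamin sum in replicate 1, 46.9 CPM, was within 1 SD of the ZH11 mean. This spread was small beside the distance to drw1.

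The neighbours as a class showed no common direction. Among the 36 that were tested, 15 were called lower in drw1, 13 higher and 8 were not past the threshold of an adjusted p of 0.05 (edgeR quasi-likelihood test). Over all tested genes 34.4% were called lower and 35.7% higher, and nothing is read from the neighbours' count. The median log2 ratio of the neighbours was 0.07, close to the 0.03 of all tested genes. Apart from LOC_Os07g11944, the 37 neighbours with at least 20 counts ranged from -1.63 to 2.41, and 25 of them lay within 2-fold of ZH11.

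LOC_Os07g11944 was the single neighbour with an 8-fold or larger difference. It had 0, 2 and 0 counts in drw1 libraries, against 57, 51 and 42 in ZH11 libraries, and its level was 70.6-fold lower in drw1 (19.2 to 588). Without drw1 replicate 2, which holds both drw1 counts, its log2 ratio of -6.14 became a bound of -5.00. It lies next to the high-end prolamin group in identifier order and has a short model of 396 bases. It was on neither list, no source used here gives it a name, and it was kept among the neighbours.

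Apart from LOC_Os07g11944, the neighbours with at least 20 counts beside the assigned loci did not share their large differences. These nearest neighbours were taken by position alone, after the values had been seen. LOC_Os07g10560, on the low side of the first prolamin pair, had 3.38, 4.09 and 2.26 CPM in drw1 libraries, against 3.74, 2.58 and 4.22 CPM in ZH11 libraries, and the genotypes overlapped. LOC_Os07g10590, on the high side of that pair, averaged 2.92 ± 0.341 CPM in drw1 and 4.85 ± 0.619 CPM in ZH11 (SD, n = 3 each), a log2 ratio of -0.73. Against the 50.4-fold and 67.6-fold lower levels of the pair, these were small differences.

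The allergen stretch from LOC_Os07g11310 to LOC_Os07g11650 holds 15 rows, 9 assigned to allergens and 6 neighbours. Of the latter, 3 had no count. LOC_Os07g11550, just under the minimum, had 0, 2 and 0 counts in drw1 libraries, against 0, 14 and 3 in ZH11 libraries. Its level was 7.06-fold lower in drw1 (counting interval 1.9 to 71.4), a log2 ratio of -2.82, with overlapping libraries. Only LOC_Os07g11490 had 20 counts or more. It had 38.8, 38 and 36.1 CPM in drw1 libraries, against 31.7, 32.4 and 27.9 CPM in ZH11 libraries, a log2 ratio of 0.30. An expressed locus inside the stretch was thus slightly higher in drw1, while the allergen loci on both sides of it were at least 27.9-fold lower. On the low side of the stretch, LOC_Os07g11300 averaged 16.1 ± 1.09 CPM in drw1 and 11.6 ± 1.53 CPM in ZH11 (SD, n = 3 each). Between the allergen stretch and the high-end prolamin group, LOC_Os07g11870 had 25, 12 and 7 counts in drw1 libraries, against 3, 8 and 2 in ZH11 libraries, a log2 ratio of 1.96 on low counts. It was 1.32 without drw1 replicate 1 and 1.70 to 2.49 without 1 of the other libraries.

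The most abundant member of the run was LOC_Os07g10840. It had 345, 359 and 312 CPM in drw1 libraries, against 791, 719 and 630 CPM in ZH11 libraries, a log2 ratio of -1.08. This 1 locus held nearly all of the difference in the sum of the neighbours, which was 1523 ± 17.1 CPM in drw1 and 1911 ± 79.1 CPM in ZH11 (SD, n = 3 each). Without it the sum was 1185 ± 13.4 CPM in drw1 and 1197 ± 1.48 CPM in ZH11. The other abundant neighbours differed little. LOC_Os07g10600 averaged 290 ± 1.85 CPM in drw1 and 239 ± 13.3 CPM in ZH11, and LOC_Os07g10720 averaged 173 ± 10.9 CPM in drw1 and 142 ± 7.34 CPM in ZH11. LOC_Os07g10830 averaged 143 ± 6.05 CPM in drw1 and 135 ± 5.34 CPM in ZH11, with overlapping libraries. LOC_Os07g10660 averaged 73.8 ± 1.53 CPM in drw1 and 92.5 ± 5.02 CPM in ZH11.

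Among neighbours that reached 5 CPM in 1 genotype, the largest ratios upward were about 2-fold or less. LOC_Os07g10860 had 6.24, 7.37 and 6.35 CPM in drw1 libraries, against 3.74, 3.54 and 2.68 CPM in ZH11 libraries, a log2 ratio of 1.00. LOC_Os07g10810 averaged 11.7 ± 1.46 CPM in drw1 and 6.82 ± 0.36 CPM in ZH11, a log2 ratio of 0.78. LOC_Os07g11290 averaged 35.1 ± 3.1 CPM in drw1 and 22.2 ± 2.54 CPM in ZH11, a log2 ratio of 0.66 (SD, n = 3 each). In these 3 loci every drw1 library was above every ZH11 library, as was the case in 37.3% of all tested genes. They were picked as the largest rises, so nothing is read from that separation. Larger ratios were found at lower levels, up to a log2 ratio of 2.41 for LOC_Os07g10920 with 26 counts over drw1 and 5 over ZH11. The best-read of these, singled out after its values were seen, was LOC_Os07g10730 with 4.18, 5.07 and 4.2 CPM in drw1 libraries, against 1.35, 0.961 and 0.67 CPM in ZH11 libraries. Its log2 ratio was 2.17 on 237 counts over drw1 and 57 over ZH11, with no overlap.

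Lower neighbours lay side by side in the middle of the run. All 8 loci with at least 20 counts from LOC_Os07g10970 to LOC_Os07g11120 had log2 ratios below 0, from -1.63 to -0.18 with a median of -1.04. This stretch was singled out after its values were seen. With library totals in place of TMM the ratios ran from -1.47 to -0.02. Within it, LOC_Os07g11000 had 44.9, 41.1 and 38.5 CPM in drw1 libraries, against 112, 112 and 122 CPM in ZH11 libraries.

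The assigned loci also had shorter gene models than nearly all of their neighbours. The rule did not use length, but length is not independent of an assignment to protein families. Their models were 456 to 638 bases long. Of the 38 neighbours, 35 had longer models, 2 fell within that range and LOC_Os07g11944 was shorter. The 2 neighbours of like length, LOC_Os07g10800 with 507 bases and LOC_Os07g11980 with 630 bases, had log2 ratios of 0.31 and 0.74. LOC_Os07g11944, with 396 bases, had a log2 ratio of -6.14. The part of length in the ratios was not tested.

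**Figure D5:**
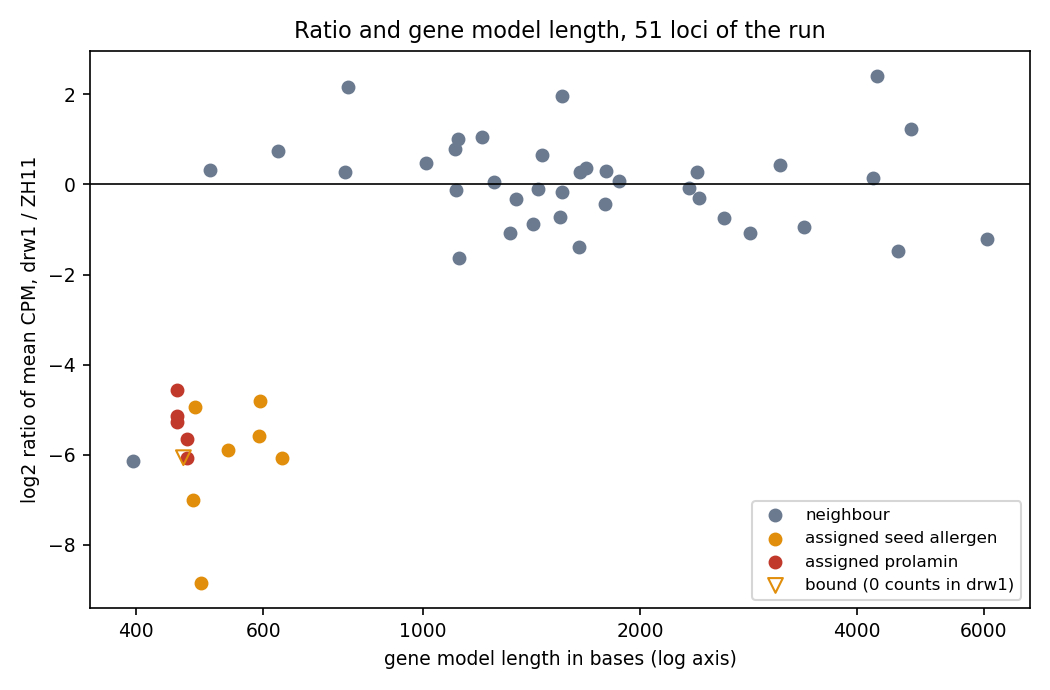
Log2 ratio of mean CPM in drw1 over ZH11 against gene model length in bases (log axis) for the 51 loci with at least 20 counts; the open triangle is a bound. The 13 assigned loci sit at 456 to 638 bases and below -4.5. The 2 neighbours of that length lie above 0, and the shorter LOC_Os07g11944 lies at -6.14.

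Storage protein loci elsewhere in the genome, also assigned by identifier and with earlier results known, were compared with the run by their values. Of 20 loci assigned to prolamins on other chromosomes, 19 are in the table, 10 had at least 20 counts and 8 were tested, with 7 called lower, 0 higher and 1 not past the threshold (edgeR quasi-likelihood test). The 10 with at least 20 counts had a median log2 ratio of -5.22, beside -5.28 for the prolamin loci of the run. Over all tested genes 34.4% were called lower and 35.7% higher, and nothing is read from the counts of calls in these lists. The list summed to 45.9 ± 5.09 CPM in drw1 and 83.5 ± 2.81 CPM in ZH11 (SD, n = 3 each), 1.82-fold lower in drw1. The locus not past the threshold was LOC_Os03g55730, whose model of 684 bases is longer than the 405 to 471 bases of the others. It averaged 45.1 ± 4.96 CPM in drw1 and 41.5 ± 3.52 CPM in ZH11. Without it, a choice made after seeing its values, the other loci summed to 0.846 ± 0.239 CPM in drw1 and 41.9 ± 2.62 CPM in ZH11 (SD, n = 3 each).

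Loci assigned to glutelins and the globulin, the other main storage proteins of rice, were also lower. Of 13 listed, 12 are in the table, all with at least 20 counts, and all 10 that were tested were called lower. The 12 loci had a median log2 ratio of -5.28 and summed to 8.14 ± 0.58 CPM in drw1 and 270 ± 9.27 CPM in ZH11 (SD, n = 3 each). The 4 loci assigned to transcription factors that activate storage genes were called lower too, with 9.57 ± 0.89 CPM in drw1 and 55.5 ± 3.82 CPM in ZH11. Their median log2 ratio was -3.96. Over all tested genes 34.4% were called lower.

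Loci assigned to the endosperm and the green pericarp were mostly lower as well. Over all tested genes 34.4% were called lower and 35.7% higher. Of 8 endosperm loci outside the storage proteins, 8 were called lower, with a median of -3.01. Their sum ran from 248 to 264 CPM in drw1 libraries and from 1844 to 1871 CPM in ZH11 libraries, and 0 were without counts. Of 9 green pericarp loci, 8 were called lower and 1 higher, with a median of -1.04 and sums of 922 to 984 CPM in drw1 libraries and 1590 to 1827 CPM in ZH11 libraries. The 2 embryo loci were not past the threshold, with 160 to 176 CPM in drw1 libraries and 160 to 171 CPM in ZH11 libraries. In whole grains, fewer endosperm cells and less RNA per cell cannot be told apart, and the part of tissue makeup in the lower storage levels was not tested.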

How the data were processed

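The authors deposited raw read counts as whole numbers, 1 row per gene model, and another column with the length of each model in bases, which served here as a description and for levels per kilobase. The submitters' processing notes name the tools fastp, HISAT2, featureCounts and DESeq. Versions, genome build, annotation, strand setting and the treatment of multiply matching reads: not given in the sources used here.

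Counts were scaled to CPM with TMM factors. Log2 ratios are of mean CPM, drw1 over ZH11, without a pseudocount. A genotype at 0 was set to 3 counts over its libraries. The ratio is then called a bound, which is set by this floor and not by the counting interval. Intervals are exact (Clopper-Pearson) at 95%, on summed counts, and cover counting error only; a floor of 3 counts was 0.166 to 0.173 CPM per drw1 library and 0.131 to 0.201 CPM per ZH11 library. Calls came from edgeR 4.0.16 (R 4.3.3), quasi-likelihood test, two-sided, genotype as the only factor, default filter, Benjamini-Hochberg adjustment over 23395 genes, threshold 0.05. Alternatives used library totals, upper-quartile and DESeq2 size factors, other filters, DESeq2 1.42.0, limma-voom (limma 3.58.1), a replicate block and 1 library left out.

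Members, lists and assignments were chosen with earlier results of these data known. Given with values were all assigned loci with at least 20 counts, other members with 8-fold differences, the 5 most abundant neighbours and the 3 largest rises of at least 5 CPM. The nearest neighbours of assigned loci, LOC_Os07g11000, LOC_Os07g10730, LOC_Os07g11550 and the rows at the ends of the range were added.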

Additional observations from a re-analysis of the deposited data

How the results depend on the processing

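Counts of calls among the members follow in large part from the choice of the run on this contrast and say nothing about its stability. Of the 48 members tested with TMM and edgeR, 27 were called lower and 13 higher, beside 34.4% and 35.7% of all tested genes. Over the alternatives 23 to 28 members were called lower and 10 to 16 higher (25 lower and 16 higher with library totals). Other filters tested other numbers of members, so these ranges are not over 1 fixed set. The median of the assigned loci stayed between -5.90 and -5.46, and that of the neighbours between 0.03 and 0.22. The summed prolamin level in ZH11 was 45.5 CPM with library totals. The neighbours summed to 1608 CPM in drw1 and 1810 CPM in ZH11 with library totals, and to 1583 CPM in drw1 with upper-quartile factors. Without 1 library their sum was 1500 to 1541 CPM in drw1, and without LOC_Os07g10840 it was 1185 CPM in drw1 and 1197 CPM in ZH11. LOC_Os07g10560, which was not called, changed sign to 0.04 with library totals and ran from -0.31 (without drw1 replicate 2) to 0.09 (without drw1 replicate 3) when 1 library was left out, with 0.03 without ZH11 replicate 3. For these shifts the cause was not tested. Of 243 values of named loci, 229 moved by less than the spread between libraries, 11 by more, and 3, all of LOC_Os07g10560, changed sign. Of the 11, 3 are the bound of LOC_Os07g11310, whose floor then rests on fewer drw1 libraries. The others are neighbour ratios under other scalings. With library totals LOC_Os07g10600, LOC_Os07g10720 and LOC_Os07g11490 had 0.43, 0.44 and 0.45, against 0.28, 0.29 and 0.30 with TMM. LOC_Os07g10830 and LOC_Os07g10660 had 0.24 and -0.17, against 0.08 and -0.33. The spread was wide for loci with few drw1 counts, 2.51 in log2 for LOC_Os07g11360 and 2.68 for LOC_Os07g11900. The 229 therefore do not show that such loci are stable. Library totals moved the median log2 fold change of all tested genes to 0.19, against 0.03 with TMM, and the share of higher calls to 61.3%, against 51%. The replicate number as a block gave 15505 calls over all genes, 26 members lower and 12 higher. The deviations of libraries with the same number correlated at -0.118, 0.0206 and -0.0976, and 1 of 6 libraries was closest to its own number, so the pairing by number was not used. Depth limits the assigned loci in drw1, where 83 to 90 counts per library were shared by all of them. The minima of 10 and 50 counts and the place of LOC_Os07g11944 were also varied; the last and the sum without LOC_Os07g10840 were chosen after seeing the data.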
